A study of Drosophila melanogaster with 24 samples.

Results

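The Y chromosome of Drosophila melanogaster was followed here through its RNA and its open chromatin in flies whose histone H3 carried arginine in place of lysine 9 (K9R). Members were all rows that the authors' deposited tables place on the assembled Y, whatever their values. These were 63 of 10253 RNA loci and 85 of 19738 regions of open chromatin. Another 61 RNA loci and 37 regions lay on Y scaffolds, pieces assigned to the Y but not placed along it, and serve only for comparison. Of the 63 RNA loci, 35 matched an annotated gene over at least 50% of the joint span of locus and gene, 12 lay inside or covered part of a gene, and 16 held no annotated gene.

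RNA libraries were made from whole first instar larvae of 4 genotypes, 3 for each. The endogenous canonical histone genes were deleted in all RNA larvae, controls included, and replaced by a transgenic array of 12 copies. In the control (HWT) the array was wild type, and in canonical K9R larvae (H3.2-K9R) the array's H3 carried K9R. H3.3 K9R larvae (H3.3-K9R_H3.2-HWT) had the wild-type array, a null H3.3A gene and K9R in H3.3B, the genes of the replacement variant H3.3. Combined K9R larvae (H3.3-K9R_H3.2-K9R) had the same H3.3 genes and the K9R array. For open chromatin FAIRE was used, an assay that enriches DNA free of nucleosomes, on imaginal discs of the wing from wandering larvae in the third instar. It compared wild type (yw) with H3.3A null, with H3.3B-K9R and with both changes together (the double mutant, H3.3-K9R), 3 libraries for each of the 4 genotypes, and here the endogenous canonical histone genes were present. The labels give neither the sex of larvae or discs nor which Y chromosome each genotype carried, and they do not say whether the libraries of a group came from separate animals, so the spread behind the p-values may be technical. The title asks whether the modification of lysine 9 on canonical H3 and on H3.3 is redundant.

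The Y of this fly is almost wholly heterochromatin, packed on nucleosomes methylated at lysine 9 of H3. It carries a small set of single-copy genes for male fertility, several of them enormous because of introns filled with repeats, which are transcribed in primary spermatocytes of the testis. It also carries repeated families: the Su(Ste) repeats, whose small RNAs silence the Stellate genes of the X in the male germline, and the Mst77Y genes, copies of an autosomal gene for a chromatin protein of sperm.

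The deposited tables hold a mean over all libraries of an assay, counts divided by size factors, and a log2 fold change with its standard error (SE), but no value of a single library. Values by sample, their overlap between groups and the depth per library are therefore unknown, and the ± below is the authors' SE. Y loci were low: their median mean count was 22.9 in the authors' deposited table, against 108 over all RNA loci, with 18 of the 63 under 10 and 6 under 1. The Y loci summed to a mean count of 158366, 0.691% of all RNA loci, and kl-5, kl-2 and Ppr-Y held 98.3% of that. In FAIRE the Y median was 56.4, against 85.9 over all regions. A call is an adjusted p under 0.05 in the authors' DESeq2 Wald test, adjusted over all loci of a table, and only called loci are said to have risen or fallen. In whole larvae or discs, fewer cells of a kind and less RNA per cell cannot be told apart.

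Y loci rose in all 3 mutants. Su(Ste) repeats and loci without a gene were among them in each, and the locus in kl-3 and ORY in both genotypes with the K9R array. In canonical K9R, 16 of the 55 Y loci with an adjusted p rose and 0 fell, where 3.04% of all tested loci rose and 0.505% fell in the authors' deposited table. In H3.3 K9R, 9 of 47 rose and 0 fell, against 2.66% and 1.65% of all tested loci. In combined K9R, 19 of 47 rose and 1 fell, against 11.4% and 13.6%. At an unadjusted p under 0.05, the authors' deposited tables put 0 Y loci lower in canonical K9R and 1 in H3.3 K9R. Values above 0 were found at 59, 56 and 53 of the 63 loci in that order of genotypes. Their medians were 0.64, 0.41 and 0.40 on the log2 scale in the authors' deposited tables, beside medians over all loci of -0.00, -0.01 and 0.00. These 3 comparisons share the control libraries, so their likeness carries no weight of its own. Over them, 6 Y loci were called in all 3, 9 in 2 and 9 in 1, and 39 in none.

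**Figure D1:**
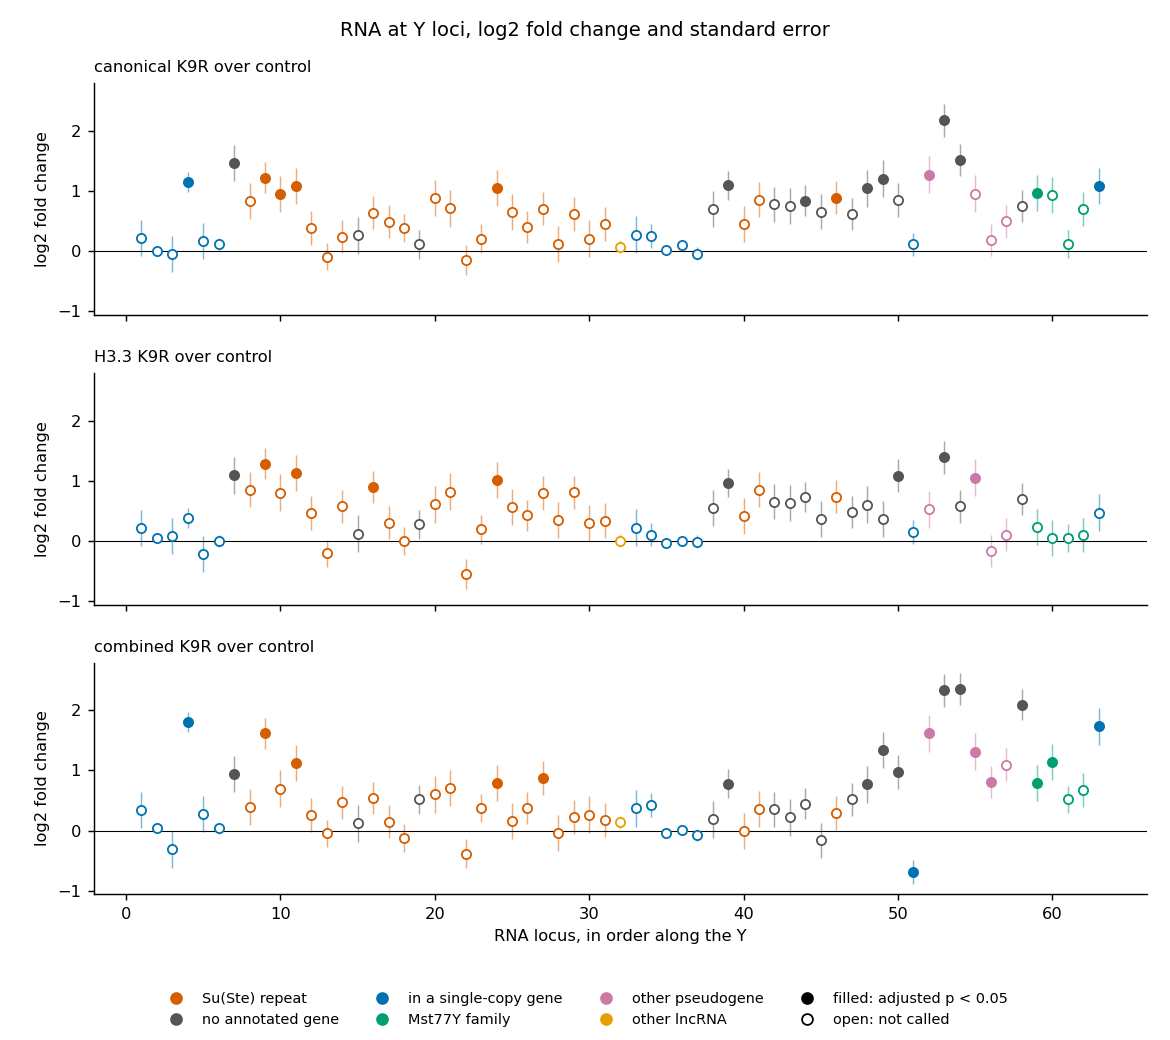
Log2 fold change over the control for the 63 Y loci (y axis, with SE), in their order along the chromosome (x axis), with 1 panel for each mutant and a colour for each class of locus; filled points have an adjusted p under 0.05. Most points lie above 0, and filled points are most frequent at the right end, among loci with no gene, pseudogenes and Mst77Y.

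The single-copy genes differed among themselves. Of 12 such genes, 8 had at least 1 locus, and PRY, CCY, Pp1-Y1 and Pp1-Y2 had none. The 3 axonemal dynein heavy chain genes, whose products drive the sperm tail, are kl-2, kl-3 and kl-5. The longest locus within kl-3 (Y, 489198 to 561256, build dm6) had a mean count of 682, or 9.46 per kb, in the authors' deposited table. Its RNA rose by 1.15 ± 0.17 on the log2 scale in canonical K9R (DESeq2 adjusted p = 7.7e-10) and by 1.81 ± 0.17 in combined K9R (adjusted p = 5.7e-25) in the authors' deposited tables. In H3.3 K9R the same locus stood at 0.39 ± 0.17 (DESeq2 adjusted p = 0.27, authors' deposited table), short of a call. The other loci of kl-3 were short, and their values in the authors' deposited tables lay between -0.31 and 0.08 with no call.

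ORY, which encodes a coiled-coil protein, had the same order of values at a far lower level. Its locus (3564613 to 3618339) had a mean count of 24.9, or 0.463 per kb, in the authors' deposited table. ORY rose by 1.08 ± 0.30 in canonical K9R (DESeq2 adjusted p = 0.013) and by 1.73 ± 0.30 in combined K9R (adjusted p = 2.8e-07), and stood at 0.47 ± 0.30 in H3.3 K9R (adjusted p = 0.63), all in the authors' deposited tables. The loci in kl-3 and ORY are long, and how reads from repeats within them were counted is not given in the sources used here. Their values are those of the whole locus, and the part of the gene's own transcript in them was not tested.

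Of the large genes with the most counts, kl-2 and Ppr-Y were not called in any mutant, and kl-5 had no p-value. Per kb of locus, the mean count in the authors' deposited table was 1231 for kl-2 (596995 to 664173), 320 for kl-5 (22250 to 137486) and 145 for Ppr-Y (1636574 to 1884846). In canonical K9R the authors' deposited table gives 0.17 ± 0.30 for kl-2 and 0.28 ± 0.31 for Ppr-Y, with DESeq2 adjusted p of 0.96 and 0.92. Combined K9R had 0.27 ± 0.30 for kl-2 (DESeq2 adjusted p = 0.56) and 0.37 ± 0.31 for Ppr-Y (adjusted p = 0.41) in the authors' deposited table. For kl-5 the tables hold no p-value, and its values in the authors' deposited tables were 0.22, 0.21 and 0.34, each ± 0.31. These SEs sit near 0.306, the highest of any RNA locus. The median SE over the 55 loci with a mean above 30000 was 0.209. With SEs near the limit, the lack of a call at kl-2 and Ppr-Y does not show that their RNA was unchanged. What lies behind these SEs and the missing p-value of kl-5 cannot be seen without values per library. How reads from repeats within these genes were counted is not given in the sources used here.

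FDY was the only Y locus called lower in any of the 3 mutants. It is a Y copy of the autosomal gene vig2. At a mean count of 223 (127 per kb), FDY (3022267 to 3024026) fell by 0.69 ± 0.20 in combined K9R (DESeq2 adjusted p = 0.0042, authors' deposited table). It stood at 0.11 ± 0.19 in canonical K9R and 0.15 ± 0.19 in H3.3 K9R (authors' deposited tables), neither called. The locus of vig2 on 3R (25123373 to 25127383, mean count 1488) fell too in combined K9R, by 1.07 ± 0.18 in the authors' deposited table (DESeq2 adjusted p = 6.7e-08). How reads shared by both copies were counted is not given in the sources used here, so the value of FDY is uncertain, and the part of vig2 reads in it was not tested. ARY, an aldehyde reductase gene, and the 4 short loci in WDY, a gene for a WD-repeat protein, had mean counts from 0.281 to 2.13 in the authors' deposited table, and none had an adjusted p.

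**Figure D2:**
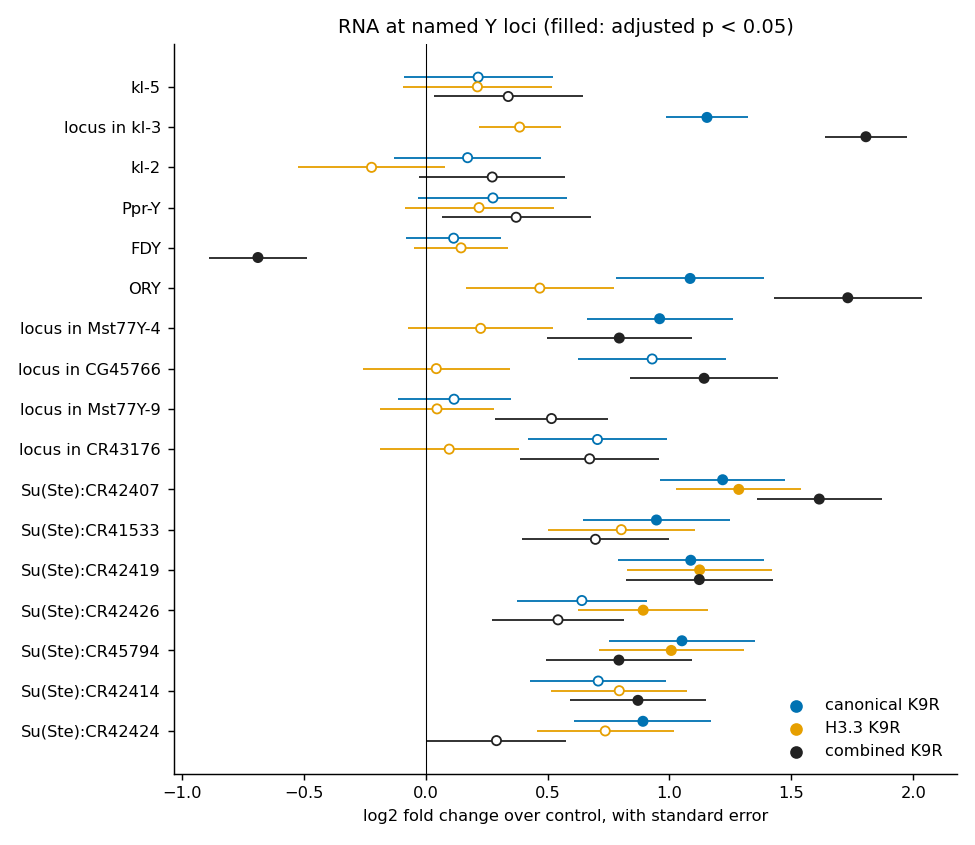
Log2 fold change over the control (x axis, bars are SE) for single-copy genes, Mst77Y loci and the Su(Ste) loci with a call, in the 3 mutants; filled points have an adjusted p under 0.05. The loci in kl-3 and ORY lie furthest right in combined K9R and FDY lies left of 0 there, at -0.69.

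The Mst77Y loci, 4 stretches of 261 bases within copies of that family, had values near 0 in H3.3 K9R and mostly higher ones with the K9R array. Mean counts ran from 6.97 to 15.3 in the authors' deposited table, so each value rests on few reads. The locus in Mst77Y-4 (3285457 to 3285717) rose by 0.96 ± 0.30 in canonical K9R (DESeq2 adjusted p = 0.041) and by 0.79 ± 0.30 in combined K9R (adjusted p = 0.035) in the authors' deposited tables. The call in canonical K9R was lost with no filter on the mean count. In H3.3 K9R it stood at 0.23 (authors' deposited table, DESeq2 adjusted p = 0.91). The locus in CG45766 (3302290 to 3302550) rose by 1.14 ± 0.30 in combined K9R alone among the mutants (authors' deposited table, DESeq2 adjusted p = 0.0014), with 0.93 in canonical K9R (adjusted p = 0.059). Those in Mst77Y-9 and CR43176 were not called in any mutant, with 0.12 and 0.70 in canonical and 0.52 and 0.67 in combined K9R (authors' deposited tables). So 1 of 4 tested loci rose in canonical and 2 of 3 in combined K9R, beside 3.04% and 11.4% of all tested loci. Between canonical and H3.3 K9R, 0 of the 4 differed by the difference test given below. The 4 medians were 0.82 in canonical, 0.07 in H3.3 and 0.73 in combined K9R. These copies resemble each other, so their reads may be split or shared between them.

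A few Su(Ste) repeats rose in each of the 3 mutants. Of 25 named Su(Ste) loci, 22 lay in a first segment of the Y from 869892 to 1038828 and 3 in a second from 2559809 to 2595311. In canonical K9R 5 of 25 rose, in H3.3 K9R 4 of 20 and in combined K9R 4 of 20, and 0 fell in any, in the authors' deposited tables. The shares of all tested loci that rose were 3.04%, 2.66% and 11.4%, so the count in combined K9R stands nearest the background. At an unadjusted p under 0.05 in the DESeq2 tests, the higher ones numbered 13, 13 and 8 and the lower ones 0, 1 and 0. Over all 10253 RNA loci that threshold gave 453, 480 and 1310 higher and 345, 439 and 1476 lower. The medians over all 25 were 0.61, 0.57 and 0.36 in the authors' deposited tables.

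Of the Su(Ste) loci, 3 were called in every mutant. Su(Ste):CR42407 (892743 to 894201, mean count 62.5) rose by 1.22 ± 0.26, 1.28 ± 0.26 and 1.61 ± 0.26 in canonical, H3.3 and combined K9R (authors' deposited tables, DESeq2 adjusted p = 1.3e-04, 4.0e-05 and 9.8e-09). Su(Ste):CR42419 (903088 to 904499) rose by 1.09, 1.12 and 1.12, each ± 0.30, in the authors' deposited tables (DESeq2 adjusted p = 0.011, 0.0062 and 0.0016). Su(Ste):CR45794 (1005986 to 1007312) rose by 1.05, 1.01 and 0.79 in the authors' deposited tables (DESeq2 adjusted p = 0.015, 0.021 and 0.036). All 3 lie in the first segment, and no difference between mutants was called at any of them.

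Others were called in 1 mutant each. Su(Ste):CR41533 rose by 0.95 and Su(Ste):CR42424, in the second segment, by 0.89 ± 0.28 in canonical K9R (DESeq2 adjusted p = 0.049 and 0.044, authors' deposited table), calls that were lost with no filter on the mean count. Su(Ste):CR42426, with a mean count of 87.3, rose by 0.89 ± 0.27 in H3.3 K9R (authors' deposited table, DESeq2 adjusted p = 0.023), and stood at 0.64 in canonical and 0.54 in combined K9R. Su(Ste):CR42414 rose by 0.87 ± 0.28 in combined K9R (authors' deposited table, DESeq2 adjusted p = 0.011). The 18 loci with no call in any mutant had values from -0.14 to 0.88 in canonical, from -0.55 to 0.85 in H3.3 and from -0.38 to 0.71 in combined K9R (authors' deposited tables). The lowest of the family was Su(Ste):CR42412, at -0.14, -0.55 ± 0.25 and -0.38 in the authors' deposited tables, with a mean count of 3.80. Since repeats of a family share sequence, reads of a copy may be counted at another, and the 25 loci are not independent of each other.

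Some unannotated loci have the length of a Su(Ste) locus. Of the 16 loci with no gene, 6 match a named Su(Ste) locus in length to the base, such as 2565515 to 2567204 and 2568354 to 2570043, both 1690 bases like Su(Ste):CR42431 and Su(Ste):CR42424. The starts of Su(Ste):CR42431 and of those 2 loci follow each other at 2839 bases. Their medians of 0.73, 0.57 and 0.28 in the authors' deposited tables lay near those of the named Su(Ste) loci. Only 2659409 to 2660466 among them was called, at 1.04 in canonical and 0.77 in combined K9R (authors' deposited tables, DESeq2 adjusted p = 0.02 and 0.049), the second lost with no filter on the mean count.

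The Stellate genes of the X, which Su(Ste) RNAs silence, were barely measured. Of 14 such genes 7 had a locus, with mean counts of 0.513 to 0.773 in the authors' deposited table, and none had an adjusted p. Their medians were 0.01, -0.05 and -0.11 in canonical, H3.3 and combined K9R (authors' deposited tables). A change of Stellate RNA was not detectable at this level.

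The 10 loci with neither a gene nor the length of a Su(Ste) locus held the highest values of the Y, and 5 of them lay between 3014841 and 3271815. Of those tested, 6 of 10 rose in canonical K9R, 4 of 9 in H3.3 K9R and 7 of 9 in combined K9R (authors' deposited tables), beside 3.04%, 2.66% and 11.4% of all tested loci. Their medians were 0.97, 0.71 and 0.96. The locus at 3051297 to 3054699 (mean count 87.4) rose by 2.17 ± 0.28, 1.39 ± 0.28 and 2.33 ± 0.28 in canonical, H3.3 and combined K9R (authors' deposited tables, DESeq2 adjusted p = 6.3e-13, 4.2e-05 and 2.2e-15). That at 3245871 to 3248170 rose by 1.52 ± 0.27 in canonical K9R and by 2.35 ± 0.27 in combined K9R, and stood at 0.57 in H3.3 K9R, in the authors' deposited tables (DESeq2 adjusted p = 1.3e-06, 8.0e-17 and 0.35). The locus at 3270447 to 3271815 was called in combined K9R alone, where it rose by 2.09 ± 0.26 (authors' deposited table, DESeq2 adjusted p = 3.0e-14). It stood at 0.75 in canonical K9R and 0.70 in H3.3 K9R (authors' deposited tables, DESeq2 adjusted p = 0.11 and 0.13).

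Another 2 loci with no gene were called in all mutants, with their lowest value in combined K9R. The locus at 859022 to 859455, just before the first Su(Ste) segment and with a mean count of 192, rose by 1.47 ± 0.30, 1.09 and 0.94 in canonical, H3.3 and combined K9R (authors' deposited tables). That at 2540805 to 2544911, before the second segment, rose by 1.09 ± 0.24, 0.96 and 0.78 in that order of mutants (authors' deposited tables). For both, the value of combined K9R was below that of either single mutant, but no difference between a pair of mutants was called. In the second segment the locus at 2571196 to 2578557 rose by 0.84 ± 0.25 in canonical K9R (authors' deposited table, DESeq2 adjusted p = 0.028), with 0.73 and 0.45 in H3.3 and combined K9R, not called. The locus at 3017195 to 3019013, near FDY, was called in H3.3 K9R at 1.08 ± 0.28 and in combined K9R at 0.97, with 0.85 in canonical K9R (authors' deposited tables, DESeq2 adjusted p = 0.0036, 0.0034 and 0.059). Its neighbour at 3014841 to 3015317 rose by 1.21 ± 0.30 in canonical and 1.34 in combined K9R, with 0.37 in H3.3 K9R, in the authors' deposited tables.

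Pseudogenes lie among these loci. Of 4 loci in pseudogenes, that in CR41504 (3049866 to 3050897) rose by 1.27 ± 0.30 in canonical and by 1.62 in combined K9R (authors' deposited tables, DESeq2 adjusted p = 0.0014 and 2.2e-06). CR46150 rose by 1.05 ± 0.31 in H3.3 K9R and by 1.31 in combined K9R (authors' deposited tables, DESeq2 adjusted p = 0.017 and 2.2e-04). CR41423 was called in combined K9R alone, at 0.81 ± 0.27 (authors' deposited table, DESeq2 adjusted p = 0.013). In canonical K9R CR46150 stood at 0.95 (authors' deposited table, DESeq2 adjusted p = 0.051), and centring on the arms or a mean count of at least 10 brought it past the threshold. For CR40801 the combined K9R table gives 1.10 ± 0.28 and no adjusted p (authors' deposited table). The locus of lncRNA:CR40629, with a mean count of 0.518 in the authors' deposited table, had no adjusted p.

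Set side by side, the Su(Ste) segments and the rest of the Y had like medians in canonical K9R and unlike ones in the others. Over the 31 loci of the 2 segments the medians were 0.64, 0.57 and 0.35 in canonical, H3.3 and combined K9R, and over the 32 outside them 0.66, 0.22 and 0.72, in the authors' deposited tables. These medians include loci with no adjusted p, most of them of low mean count: 0, 6 and 6 in the segments and 8, 10 and 10 outside. Such loci weigh more on the medians outside, and their part in the gap was not tested. Calls in the segments were 6 of 31, 4 of 25 and 4 of 25 tested loci, all higher. Outside them 10 of 24, 5 of 22 and 15 of 22 tested loci rose, and FDY fell in combined K9R. Of all tested loci 3.04%, 2.66% and 11.4% rose, so the segments' count in combined K9R is near the background. The loci outside include those at 2514982, 2645171 and 2659409, which have the length of a Su(Ste) locus. Scaffolds of the Y had higher medians still, 1.36, 1.16 and 1.86 over 61 loci in the authors' deposited tables. The difference between segments and the rest was not tested, since neighbouring loci share sequence and libraries.

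**Figure D3:**
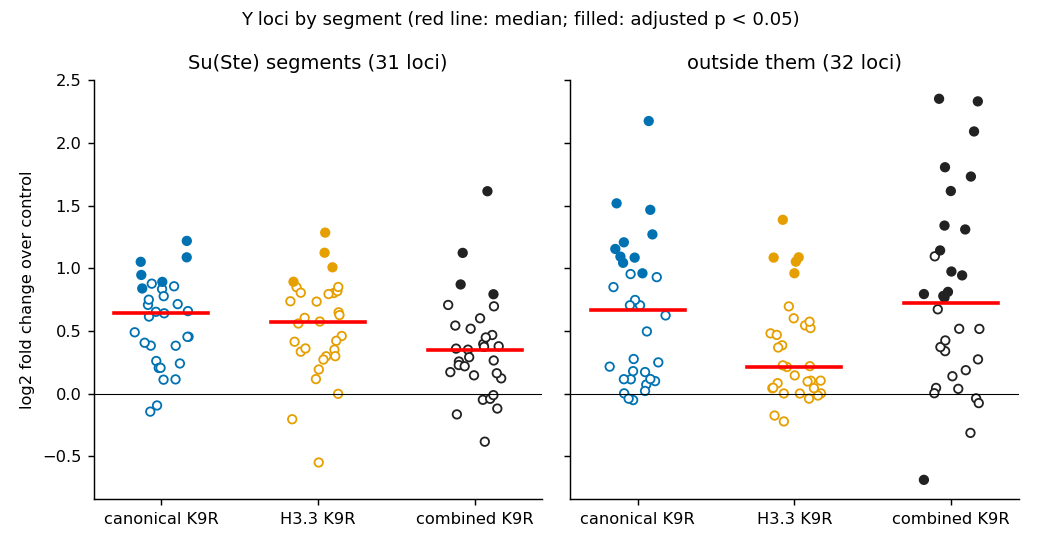
Log2 fold change over the control (y axis) of each Y locus in the 3 mutants, for the 31 loci of the Su(Ste) segments (left) and the 32 outside them (right); points are loci, filled with an adjusted p under 0.05, and red lines are medians. In combined K9R the median is 0.35 in the segments and 0.72 outside them, and FDY is the filled point below 0.

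To compare mutants with each other, the authors' log2 fold changes were subtracted locus by locus, divided by the root of the summed squared SEs, and the p-values adjusted over 10072 loci. The control libraries are in both terms, which makes the error too wide and the test conservative. Combined K9R was above canonical K9R at 1 of 62 Y loci and below it at 0, against 0.655% and 0.923% of all loci. That locus was 3270447 to 3271815, with a difference of 1.34 ± 0.37 (difference test on the DESeq2 values, adjusted p = 0.021). Combined K9R was above H3.3 K9R at 3 of 62 and below it at 0, against 1.77% and 1.65%. The first was the longest locus within kl-3, 1.42 ± 0.24 (difference test on the DESeq2 values, adjusted p = 7.0e-07). The others were the loci at 3245871, 1.78 ± 0.38 (same test, adjusted p = 4.0e-04), and at 3270447, 1.40 ± 0.37 (adjusted p = 0.0082).

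Canonical and H3.3 K9R differed by this test at 0 Y loci, against 0.943% higher and 0.248% lower over all loci. At an unadjusted p under 0.05, 5 Y loci were higher in canonical K9R and 0 lower by the same test on the DESeq2 values, against 2.91% and 1.64% of all loci. With the shared control taken out of the error, combined K9R was above canonical K9R at 3 Y loci and below it at 1, against 2.92% and 3.64% of all 10072 loci under the same error. It was above H3.3 K9R at 10 and below it at 1, against 5.97% and 6.30%. Canonical K9R was above H3.3 K9R at 2 and below it at 0, against 2.31% and 1.18%. In that version FDY was lower in combined than in canonical K9R, by -0.80 (difference test on the DESeq2 values, adjusted p = 0.0023), and than in H3.3 K9R, by -0.83 (adjusted p = 7.3e-04). Those 2 that separated canonical from H3.3 K9R were the longest locus within kl-3 and the locus at 3245871. Their differences were 0.77 and 0.94 (difference test on the DESeq2 values, adjusted p = 3.7e-04 and 0.018). The 10 included ORY, 1.26 (difference test on the DESeq2 values, adjusted p = 8.1e-04), and the Mst77Y locus in CG45766, 1.10 (adjusted p = 0.0046).

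Combined K9R was also set against the sum of the single mutants' log2 fold changes. By the test with independent errors 0 Y loci departed from that sum, against 0.0199% of all loci above it and 0.129% below. At an unadjusted p under 0.05, 0 Y loci were above the sum and 20 below it by the same test on the DESeq2 values, against 1.54% and 2.47% of all loci. Over the 25 Su(Ste) loci, the departure from the sum had a median of -0.82, and 2 of them lay above 0. Over the 32 loci outside the segments it had a median of -0.09 and 11 lay above 0, and over the 4 Mst77Y loci a median of 0.02. The same control libraries enter every fold change, so low control values would raise each of them and lower the departure. All loci share these libraries and the repeats may share reads, so the loci do not count as repeated evidence. The part of the control in the departure was not tested. With the shared control taken out of the error alone, 2 Y loci were below the sum and 0 above it, against 0.477% and 0.248% of all loci. They were the loci at 859022, -1.61 ± 0.43, and at 2540805, -1.27 ± 0.34 (difference test on the DESeq2 values, adjusted p = 0.032 for both).

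Because the Y is carried by males and its genes act in the male germline, markers of both were read beside these values. Of 7 genes of male dosage compensation 4 were measured and 0 called in any mutant by DESeq2, with medians of -0.08, -0.02 and 0.13 in canonical, H3.3 and combined K9R (authors' deposited tables). Among them lncRNA:roX2, an RNA made in males, stood at -0.15, -0.06 and -0.23, each ± 0.24, in the authors' deposited tables. Of 27 spermatocyte and testis genes 14 had a locus and 6 were tested, with 0 called in any mutant. The medians over the 14 were -0.02, 0.00 and 0.00 in the authors' deposited tables. Those not tested had mean counts of only 0.114 to 1.65 in the authors' deposited table. A change at those loci was not detectable at this level, and the medians rest in part on them. Of 6 measured germline genes, tut rose by 1.55 ± 0.30 in canonical K9R (authors' deposited table). In combined K9R tut rose by 0.90 and AGO3, a piRNA-pathway Argonaute, by 0.42 ± 0.13, in the authors' deposited table. There the germline helicase gene vas fell by 0.72 ± 0.14 in the authors' deposited table, at a locus that also holds vig. Of 3 measured sex-determination genes, Sxl, the switch gene of female development, rose by 0.33 ± 0.13 in combined K9R (authors' deposited table, DESeq2 adjusted p = 0.038), and fru and dsx were not called in any mutant. In canonical and H3.3 K9R Sxl stood at 0.08 and 0.08 (authors' deposited tables). Of 7 measured factors of Y chromosome state and silencing, 0 were called in canonical or H3.3 K9R and 2 fell in combined K9R (authors' deposited tables), the H3K9 methyltransferase gene Su(var)3-9 by 0.51 ± 0.15 and the piRNA-pathway gene del by 0.62 ± 0.16. Over all tested loci, 3.04% rose in canonical K9R, and 11.4% rose and 13.6% fell in combined K9R (authors' deposited tables). With lists this short, the counts of called markers cannot be told apart from those shares. The part of sex or germline in the Y values was not tested.

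In wing discs, more regions of the assembled Y were called in the genotypes without H3.3A than in H3.3B-K9R alone. In H3.3A null discs 18 of 85 regions rose and 5 fell, against 4.79% and 4.00% of all regions in the authors' deposited table. In H3.3B-K9R discs 4 rose and 1 fell, against 3.95% and 2.58%. In the double mutant 15 rose and 2 fell, against 4.71% and 3.21%. Set over H3.3A null, the double mutant had 5 regions higher and 7 lower, against 3.71% and 2.79%. Medians over the 85 regions were 0.12, -0.01, 0.21 and 0.03 in those comparisons in the authors' deposited tables, and over the X 0.00, 0.01, -0.01 and -0.00. Since the 3 comparisons over wild type share its libraries, their calls are not independent. Of 26 regions called in any of them, 5 were called in all 3 and 14 in both H3.3A null and the double mutant. Scaffolds of the Y differed in this, with as many regions higher in H3.3B-K9R as in H3.3A null. Of their 37 regions, 15 rose and 9 fell in H3.3A null, and 15 rose and 1 fell in H3.3B-K9R. In the double mutant 16 rose and 3 fell, and the medians were 0.36, 0.34 and 0.47 in that order (authors' deposited tables).

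**Figure D4:**
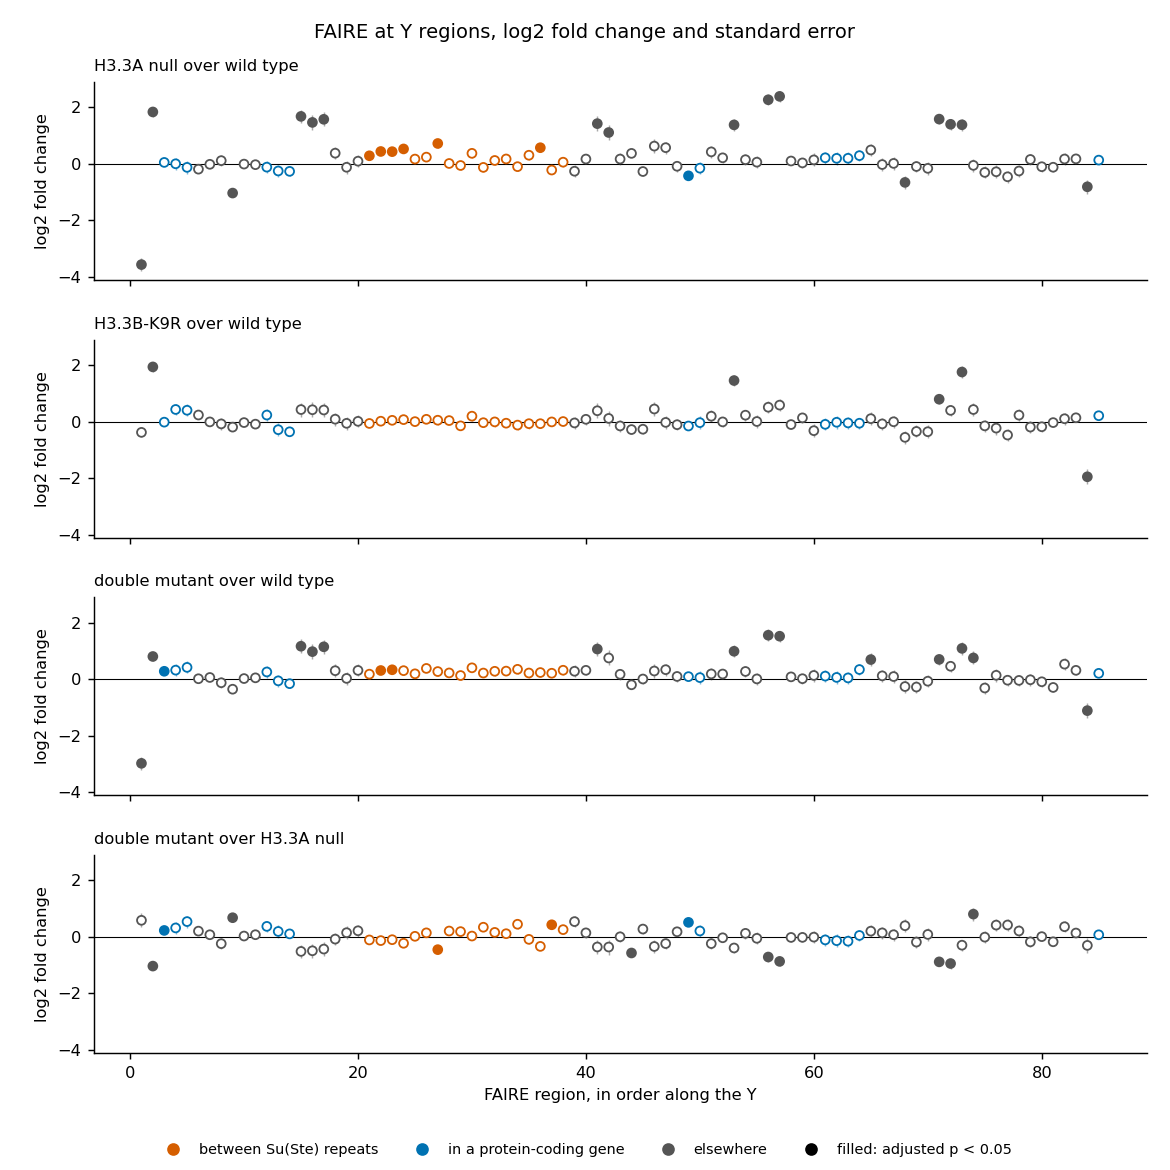
Log2 fold change in FAIRE (y axis, with SE) of the 85 Y regions in their order along the chromosome (x axis), with 1 panel for each comparison; colours mark regions between Su(Ste) repeats, in a protein-coding gene or elsewhere, and filled points have an adjusted p under 0.05. In the panel of H3.3A null the values run from -3.56 to 2.39.

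Of 13 regions within protein-coding genes, 0 rose and 1 fell in H3.3A null, 0 were called in H3.3B-K9R, and 1 rose and 0 fell in the double mutant in the authors' deposited tables. Over all regions 4.79% rose and 4.00% fell in H3.3A null and 4.71% rose and 3.21% fell in the double mutant, so with 13 regions these counts are near the background. Their values ran from -0.42 to 0.29 in H3.3A null, from -0.36 to 0.43 in H3.3B-K9R and from -0.16 to 0.42 in the double mutant in the authors' deposited tables. These included regions in kl-3, kl-2 and WDY, none called in any table, and the region nearest an Mst77Y gene (3282872 to 3283053) had -0.25, 0.23 and -0.04, also uncalled. Of those 13, 2 were higher in H3.3B-K9R and 1 lower at an unadjusted p under 0.05 in the DESeq2 test, against 1282 and 1151 of all 19738 regions. The region within kl-5 (124306 to 124568) had a mean count of 16409, a level that 7 of 19738 regions reached, itself included. The kl-5 region rose by 0.28 ± 0.06 in the double mutant over wild type and by 0.23 ± 0.06 over H3.3A null in the authors' deposited tables (DESeq2 adjusted p = 2.5e-04 and 0.0072). It stood at 0.05 in H3.3A null and -0.02 in H3.3B-K9R (authors' deposited tables).

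A region in Ppr-Y (1672226 to 1672619) fell by 0.42 ± 0.14 in H3.3A null (authors' deposited table, DESeq2 adjusted p = 0.028). In the double mutant over H3.3A null the same region rose by 0.51 ± 0.13 (authors' deposited table, DESeq2 adjusted p = 0.0029). The region in ORY (3562614 to 3562715, mean count 2254) had 0.14 in H3.3A null, 0.21 in H3.3B-K9R and 0.21 in the double mutant in the authors' deposited tables, none called. In FAIRE, 0 regions lay in a named Su(Ste) locus and 6 lay in any measured Y RNA locus. RNA and FAIRE differ in tissue, stage and histone background, so they are not set against each other locus by locus.

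Between the Su(Ste) repeats of the first segment lay 18 regions. In H3.3A null 6 of them rose, against 4.79% of all regions, with a median of 0.21 over the 18, in the authors' deposited table. In the double mutant 2 rose, against 4.71% of all regions, a count near that share with 18 regions. There all 18 had values above 0, from 0.13 to 0.40, with a median of 0.28 (authors' deposited table). Of all 85 Y regions, 69 lay above 0 in the double mutant. The 18 share libraries, lie among repeats of a family and may share reads, so they do not count as repeated evidence. In H3.3B-K9R 0 were called, where 3.95% of all regions rose and 2.58% fell, and the median was -0.01 in the authors' deposited table. At an unadjusted p under 0.05 by DESeq2 0 of the 18 were called there, where 1282 of all 19738 regions were higher and 1151 lower. The region with the most counts of the segment (956735 to 958103, mean count 1273) had 0.44 ± 0.09 in H3.3A null, 0.01 in H3.3B-K9R and 0.31 in the double mutant in the authors' deposited tables (DESeq2 adjusted p = 4.2e-05, 0.99 and 0.013).

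A few regions outside genes had values far from 0. The region nearest the start of the assembled Y (156 to 587) fell by 3.56 ± 0.23 in H3.3A null, and fell by 2.98 ± 0.22 in the double mutant in the authors' deposited tables (DESeq2 adjusted p = 7.7e-52 and 7.9e-40). In H3.3B-K9R it stood at -0.38 (authors' deposited table, DESeq2 adjusted p = 0.3). Adjacent regions at 2121351 to 2121883 and 2122040 to 2122494 rose by 2.27 ± 0.20 and 2.39 ± 0.19 in H3.3A null and by 1.56 and 1.52 in the double mutant in the authors' deposited tables. In H3.3B-K9R they stood at 0.51 and 0.58 (authors' deposited table, DESeq2 adjusted p = 0.2 and 0.08). A cluster of 3 regions beyond kl-2 (673555 to 674390), with mean counts of 16.6 to 28.0, rose by 1.68, 1.47 and 1.58 in H3.3A null and by 1.17, 0.98 and 1.15 in the double mutant in the authors' deposited tables.

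Other regions rose in every mutant. The region at 9019 to 9435, 398 bases from Pp1-Y1, rose by 1.84 ± 0.16 in H3.3A null, 1.93 ± 0.16 in H3.3B-K9R and 0.80 ± 0.17 in the double mutant in the authors' deposited tables (DESeq2 adjusted p = 1.7e-27, 4.0e-30 and 5.5e-05). Regions at 2103788 to 2104086 and 3006689 to 3007073 rose by 1.38 and 1.39 in H3.3A null, 1.45 and 1.75 in H3.3B-K9R and 0.99 and 1.09 in the double mutant in the authors' deposited tables. In these 3 regions the double mutant had the lowest value of the mutants. The region at 3523640 to 3523748, with a mean count of 13.2, stood at -0.81, -1.95 ± 0.26 and -1.11 in that order of mutants (authors' deposited tables, DESeq2 adjusted p = 0.022, 9.2e-12 and 4.1e-04).

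Between WDY and FDY the regions at 2870642 to 2871012 and 2872044 to 2872420 rose by 1.59 and 1.40 in H3.3A null (DESeq2 adjusted p = 3.6e-17 and 4.1e-12, authors' deposited table). The double mutant was below H3.3A null at both, by -0.88 and -0.94 in the authors' deposited table (DESeq2 adjusted p = 1.3e-06 and 2.8e-06). Over wild type the first of them still rose in the double mutant, by 0.70, and in H3.3B-K9R, by 0.79, while the second stood at 0.46 and 0.40 with no call, in the authors' deposited tables. The region at 286744 to 287125, before kl-3, fell by 1.03 ± 0.15 in H3.3A null (authors' deposited table, DESeq2 adjusted p = 8.9e-11). There the double mutant was above H3.3A null by 0.68 ± 0.15 and stood at -0.35 over wild type in the authors' deposited tables. At 3096319 to 3096457 the double mutant rose by 0.75 over wild type and by 0.80 over H3.3A null (authors' deposited tables, DESeq2 adjusted p = 0.016 and 0.0077), with -0.05 in H3.3A null and 0.43 in H3.3B-K9R.

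The effect of H3.3B-K9R could be measured with H3.3A present, over wild type, and without it, over H3.3A null, and these comparisons share no library. The difference between both effects was tested after the values had been seen, and 5 of 85 Y regions were higher without H3.3A and 7 lower, against 2.49% and 2.36% of all regions. For the region near Pp1-Y1 the effect was 1.93 ± 0.16 with H3.3A and -1.03 ± 0.15 without it in the authors' deposited tables, a difference of -2.97 ± 0.22 (difference test on the DESeq2 values, adjusted p = 4.5e-39). At 3006689 it was 1.75 with H3.3A and -0.30 without it in the authors' deposited tables, a difference of -2.05 ± 0.29 (difference test on the DESeq2 values, adjusted p = 2.7e-10). For the region in Ppr-Y the difference was 0.67 ± 0.19 (difference test on the DESeq2 values, adjusted p = 0.012).

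**Figure D5:**
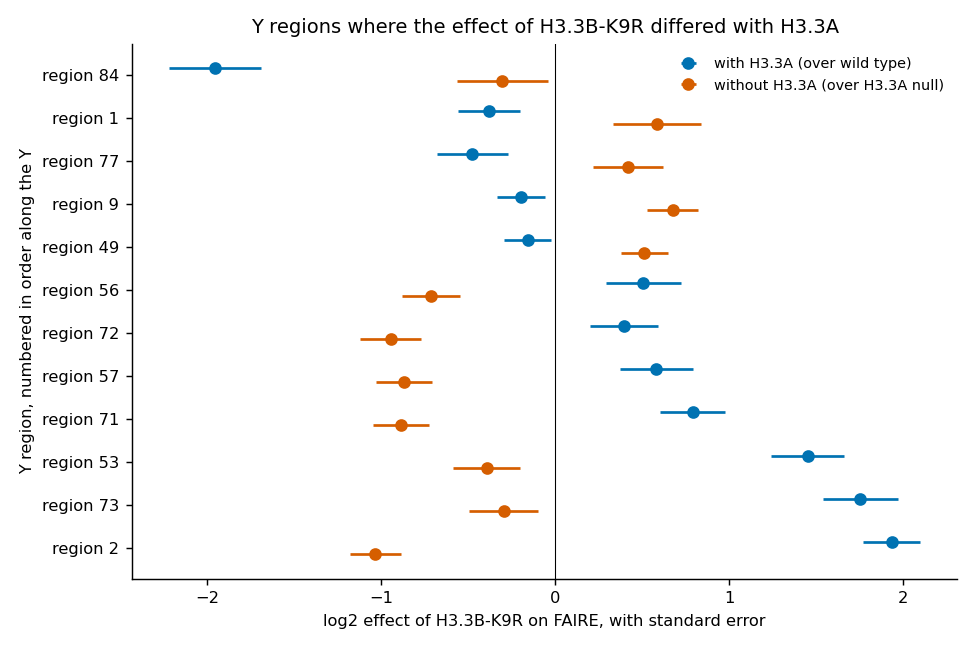
Log2 effect of H3.3B-K9R on FAIRE (x axis, bars are SE) with H3.3A present (blue, over wild type) and without it (orange, over H3.3A null) at the 12 Y regions where both effects differed with an adjusted p under 0.05; regions are numbered along the Y and ordered by the difference. Region 2, near Pp1-Y1, has the widest gap, from 1.93 to -1.03.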

How the data were processed

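RNA came from 12 libraries of whole larvae (NuGEN Ovation kit) and FAIRE from 12 of wing discs (Rubicon ThruPLEX kit), per the labels. Per the submitters' processing notes the build was dm6 and the tools were DESeq2, MACS2, SAMtools 1.5, TopHat2 2.1.1, Bowtie2 2.3.2, bedtools 2.2.25.0 and Cufflinks 2.1.1, with no roles given. How reads were counted, multi-mapping ones included, is not given in the sources used here. Only the authors' DESeq2 tables were analysed. Per the file headers they hold the mean normalized count (a signal), the log2 fold change with its SE, the Wald statistic (a score), and the p-value and adjusted p-value. Fold changes were taken as shrunk, since the deposited SEs have an upper limit (0.306 in RNA, 0.267 in FAIRE). This may understate the change of a locus with a low mean or with an SE near the limit, such as kl-2, kl-5 and Ppr-Y. A missing adjusted p was kept as missing.

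Names came from the Release 6 RefSeq gene table. Loci were named when locus and gene shared at least 50% of their joint span, and positions are 1-based. Genes of the Y that this table places on scaffolds were not used. By rule the text covers the loci of protein-coding genes, Su(Ste) and Mst77Y, the 6 unnamed loci of lowest adjusted p in each RNA table, the 5 regions of lowest adjusted p in each FAIRE table, and regions within 2000 bases of a coding gene, some by count and range only. Every other locus or region given was chosen after its values were seen. Members and lists were chosen with earlier results of these data known. Differences between tables were two-sided normal tests with Benjamini-Hochberg adjustment, computed with Python 3.11.15 and SciPy 1.17.1 and tested on simulated data. Alternatives were an adjusted p of 0.01, a log2 minimum of 0.5, a mean count of at least 10, no count filter, centring on the arms, an 80% share for names, and an error without the shared control, set at 50% of the smaller squared SE.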

Additional observations from a re-analysis of the deposited data

Results flagged for a closer look

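At 12 Y regions the effect of H3.3B-K9R on FAIRE in wing discs differed with H3.3A, by the test of the difference between the authors' deposited values over wild type and over H3.3A null (adjusted p under 0.05). The effect was lower without H3.3A at 7 of them: near Pp1-Y1 at 9019 to 9435 by -2.97, at 3006689 to 3007073 by -2.05, at 2103788 to 2104086 by -1.84, at 2870642 to 2871012 by -1.67, at 2122040 to 2122494 by -1.45, at 2872044 to 2872420 by -1.34 and at 2121351 to 2121883 by -1.22 on the log2 scale. It was higher without H3.3A at 5: at 3523640 to 3523748 by 1.65, at 156 to 587 by 0.97, at 3276213 to 3276330 by 0.90, at 286744 to 287125 by 0.87 and in Ppr-Y at 1672226 to 1672619 by 0.67. The values of H3.3A null enter this difference: at all 7 of the former H3.3A null was itself above wild type, by 1.38 to 2.39 in the authors' deposited table, and at all 5 of the latter it was below, by -0.42 to -3.56, not called at 3276213 to 3276330. The part of H3.3A null's own change in the difference was not tested.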

How the results depend on the processing

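With an adjusted p under 0.01, 8 Y loci were called in canonical K9R and 5 in H3.3 K9R, and 0 differed between combined and canonical K9R. With the shared control taken out of the error, 4 loci differed between combined and canonical K9R, 11 between combined and H3.3 K9R, 2 between canonical and H3.3 K9R, and 2 departed from the sum, as this alternative's smaller error implies. No direction reversed under any alternative run. The other counts of calls stayed within 1.5 times the reported ones, and the share of 80% named 32 loci in place of 35. Of the loci and regions covered by the naming rule, 16 values lost their call at 0.01, 3 without the count filter (CR41533, CR42424 and Mst77Y-4, all in canonical K9R) and 3 under a log2 minimum of 0.5, and none changed under centring. Outside that rule, CR46150 gained a call in canonical K9R under centring and with a mean count of at least 10. No paired analysis was possible because the tables hold no values per library, and for the same reason leaving out each replicate was not run and depth per library is unknown.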
